A study of Homo sapiens with 9 samples.

Results

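The circadian clock genes examined here are BMAL1, CLOCK, PER1, PER2, PER3, CRY1, CRY2, NR1D2, NFIL3 and RORA, taken by gene symbol from the probe annotation of a human Affymetrix 3′ expression array. Of these 10 genes, 9 had at least 1 probe set annotated to that symbol alone, 25 probe sets in all, among 19775 genes measured on 41091 such probe sets. The 4 probe sets that name PER1 also name the microRNA gene MIR6883, so they were left out of the counts and are described apart. Expression was measured in HepG2, an established hepatoma line with many hepatocyte functions, 3 arrays per group: DMSO vehicle, 100 nM GW7647 for 6 h, and 100 nM GW7647 for 24 h. GW7647 is a synthetic agonist of PPARα, a fatty acid-sensing nuclear receptor. All cells were grown in phenol red-free medium with serum and had been split the day before treatment. The labels give 1 vehicle group for both times and state no duration for it, so ligand exposure, time in culture and time since the last handling cannot be told apart. The labels name no step that synchronised the cells. Each array averages over many cells, so fewer cells expressing a gene and less RNA per cell cannot be told apart.

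The mammalian clock is a delayed negative feedback loop. The proteins BMAL1 and CLOCK pair on E-box DNA elements and switch on the PER and CRY genes, whose products return to the nucleus and repress that pair. In a second loop, REV-ERB receptors (NR1D1, NR1D2) repress and ROR receptors (RORA) activate through a shared element, the RORE, of which BMAL1 is the best known target. Another element, the D-box, is bound by the activators DBP, TEF and HLF and by their antagonist NFIL3. In liver these loops drive daily rhythms of lipid, bile acid and glucose metabolism, and the gene for PPARα is itself a clock output.

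These elements lie in several members' own promoters. The stretches printed here come from RefSeq promoter sequences on GRCh38.p14 (250 bases before to 50 bases after a start site). They are shown because their genes passed in a comparison, NR1D2 only on its second probe set or in alternative settings. PER2 and PER3 did not pass and are shown because they carried a D-box. Capitals mark a motif found on either strand, and every stretch is written 5′ to 3′ on the strand of its gene.
BMAL1: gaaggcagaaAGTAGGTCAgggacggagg
NFIL3: cgctcggaacTGACCTACTaacacacatc
CLOCK: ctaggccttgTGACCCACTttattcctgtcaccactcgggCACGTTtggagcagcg
NR1D2: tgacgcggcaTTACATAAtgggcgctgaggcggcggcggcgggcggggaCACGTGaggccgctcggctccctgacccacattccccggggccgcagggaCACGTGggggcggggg
PER2: ccgctgcggcTTACGTAAccgccgccgg
PER3: agcccgcgcgTTATGTAAcgcgccccgg

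The BMAL1 stretch is chr11:13277808-13277836 (plus strand), and the NFIL3 stretch is chr9:91423823-91423851 (minus strand). Each holds the RORE letters ANTAGGTCA, forward in BMAL1 and reversed in NFIL3, which occur in 0.49% of all 35116 promoter windows of this length. The CLOCK stretch, chr4:55546104-55546159 (minus strand), holds the related form ANTGGGTCA, reversed, which 0.786% of windows hold, and the E-box variant CACGTT, which 5.34% hold. This 9-letter form of the RORE was adopted after a form with 1 more A in front had been seen to match BMAL1 and CLOCK but not NFIL3; that longer form is in 0.168% of windows with A and in 0.211% with G at the variable place. The NR1D2 stretch, chr3:23945917-23946031 (plus strand), holds 2 copies of the E-box CACGTG (7.26% of windows) and a D-box, TTATGTAA read on the other strand (0.886%). The same E-box is in a window of PER1, and the variant CACGTT is in windows of PER2, CRY1 and CRY2 as well as of CLOCK. PER3 carries the same D-box at chr1:7784104-7784131 (plus strand), and PER2 the variant TTACGTAA, in 0.125% of windows, at chr2:238288596-238288623 (minus strand). The 16 windows of the 10 members included 1 for RORA, in which none of the motifs searched was found. That window, chr15:60627481-60627780 (minus strand), is at a start inside the gene, and the outermost start, near 61229302, was not searched. The windows of NFIL3 and PER2 also lie inside their genes, short of the outermost starts near 91483497 and 238300065. A half-site of nuclear receptors, AGGTCA, overlaps the RORE and is in 13.8% of windows, among them windows of BMAL1, PER1, CRY2 and NFIL3, whereas the direct repeat of it spaced by 1 base, the classical PPAR element, is in 0.0228% of windows and in no member's. The cAMP element TGACGTCA, in 1.85% of windows, was in no member window either. A match describes letters in the reference sequence, and binding was not measured here.

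Levels are log2 RMA signals, so a difference of 1 is a doubling. Ranks of low signals aside, a level is compared only with the same probe set on other arrays. Where a gene had several probe sets, the one of highest mean signal stands for it. Changes are given ± SE from limma, with p-values adjusted by Benjamini-Hochberg over all 19775 genes and a threshold of 0.05. The labels do not say that replicates are separate cultures, so the p-values cover the spread among these samples, possibly only a technical one. Across genes, r was 0.997 to 0.999 within groups (9 array pairs) and 0.995 to 0.998 between them (27 pairs). Of 9 measured hepatocyte markers, 0 changed at 6 h and 2 fell at 24 h (TTR and FGB), beside 2.8% of all genes. At an unadjusted p under 0.05 the counts were 1 and 4, beside 16.3% and 21.2% of all genes. The array means of these markers stood apart in order, at 13.52 to 13.56 in vehicle, 13.48 to 13.49 at 6 h and 13.37 to 13.40 at 24 h. All 9 had a lower mean at 6 h than in vehicle, beside 48.5% of all genes. Marker means ran from 9.69 (TTR) to 14.8 (ALB). Among 17 markers of other cells found in liver, 0 changed at 6 h and 1 (ACTA2) rose at 24 h, beside 5.38% of all genes. The array means of this list were 6.69 to 6.73 in vehicle, 6.72 to 6.76 at 6 h and 6.71 to 6.80 at 24 h. At an unadjusted p under 0.05 the counts were 2 and 3. The part of these markers in the results that follow was not tested. Some of this second list, such as SOX9, had a high signal in HepG2 in all groups. Among vehicle arrays, replicate 2 was the lowest for CLOCK, PER2, PER3, CRY1, NR1D2 and RORA. For PER2 and NR1D2 the changes against vehicle are given without it as well.

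At 6 h of GW7647, NFIL3 was lower than in vehicle. At 24 h BMAL1 was higher than in vehicle, a call lost in 11 of 18 alternative settings. NR1D2 had a lower mean than vehicle at both times but did not pass on its brightest probe set, nor after quantile normalization or median centring. It passed at both times with its probe sets averaged. Between the times of exposure BMAL1, NFIL3 and RORA were higher at 24 h than at 6 h, and CLOCK was lower. The RORA call was lost in 10 of 19 settings. PER2, PER3, CRY1 and CRY2, the repressors of the core loop, passed the test in no comparison.

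In counts, 0 of 9 members rose and 1 fell at 6 h, beside 1.64% of all genes that rose and 1.91% that fell. At 24 h against vehicle 1 member rose and 0 fell, beside 5.38% and 2.8% of all genes. At 24 h against 6 h, 3 rose and 1 fell, beside 9.23% and 4.57% of all genes. The median log2 change of the 9 members was -0.06 at 6 h, -0.02 at 24 h and 0.05 between the times, and over all genes 0.0039, 0.0034 and -0.0097. Of the 9 members, 7 had a lower mean at 6 h than in vehicle, beside 48.5% of all genes. At an unadjusted p under 0.05 the member counts were 5, 2 and 5, beside 16.3%, 21.2% and 25.9% of all genes. The members were chosen with earlier results of these data known, so these counts do not test them as a set. The comparisons share arrays and are not independent of one another.

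Counted over all 25 probe sets, with p-values adjusted over 41091 probe sets, 0 rose and 2 fell at 6 h (background 0.905% and 1.13%). At 24 h 1 rose and 2 fell (background 3.37% and 2.3%). Between the times 3 rose and 1 fell (background 6.2% and 3.51%). In that larger table the same probe sets of BMAL1 at 24 h against vehicle (adjusted p = 0.0541) and of RORA between the times (226682_at, adjusted p = 0.0585) no longer passed. The sets that passed in at least 1 comparison belonged to BMAL1, CLOCK, NR1D2, NFIL3 and RORA.

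**Figure D1:**
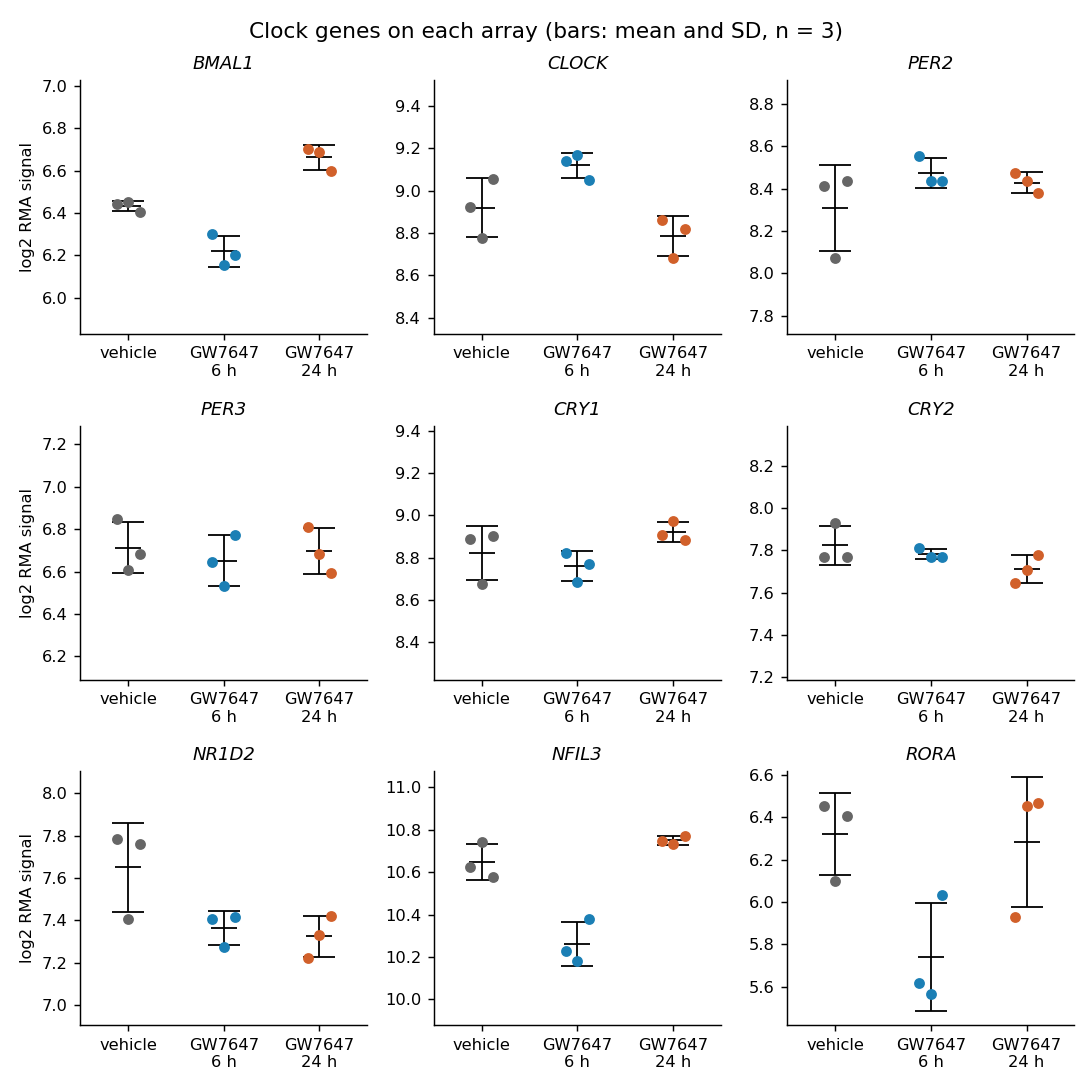
Log2 RMA signal of the 9 measured clock genes on each of the 9 arrays, by group (vehicle, GW7647 6 h, GW7647 24 h), with bars for the mean and SD of 3 arrays. NFIL3 is lowest at 6 h, at 10.18 to 10.38, with 24 h at 10.73 to 10.77, BMAL1 is lowest at 6 h and highest at 24 h, and CLOCK runs the other way, while the PER and CRY groups overlap with vehicle.

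BMAL1, the gene for the E-box activator without which the loop stops in mice, lies at chr11:13276652-13387266 (GRCh38.p14). Its signal was 6.45, 6.45 and 6.41 on the vehicle arrays, 6.30, 6.15 and 6.20 at 6 h, and 6.71, 6.69 and 6.60 at 24 h. The 3 groups did not overlap: 6 h lay lowest, vehicle between, and 24 h highest. From 6 h to 24 h BMAL1 rose by 0.44 ± 0.06, or 1.36-fold (95% confidence interval 1.24 to 1.49, limma adjusted p = 5.99e-04). Against vehicle it was 1.17-fold higher at 24 h (0.23 ± 0.06, adjusted p = 0.0348), and its 6 h value, lower by 1.16-fold, did not pass (-0.21 ± 0.06, adjusted p = 0.0754). The call at 24 h against vehicle was lost in 11 of 18 alternative settings, among them each removal of a vehicle array (adjusted p up to 0.109 over all removals of 1 array). The difference between the times was lost in 0 of 18 (adjusted p up to 0.00484 with an array removed). The second BMAL1 probe set, 210971_s_at, read 4.97, 5.18 and 5.12 in vehicle, 5.09, 5.11 and 4.97 at 6 h and 5.21, 5.52 and 5.26 at 24 h. Its change between the times had the same sign and did not pass (0.27 ± 0.09, adjusted p = 0.0852), and its 6 h arrays overlapped with vehicle.

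CLOCK, BMAL1's partner and a reported histone acetyltransferase, lies at chr4:55427903-55546909. It read 8.92, 8.78 and 9.06 in vehicle, 9.14, 9.17 and 9.05 at 6 h, and 8.86, 8.68 and 8.82 at 24 h. All 6 h arrays lay above all 24 h arrays, and vehicle overlapped with both. CLOCK fell by 0.33 ± 0.08 from 6 h to 24 h, a 1.26-fold difference (95% confidence interval 1.12 to 1.42, adjusted p = 0.0165). Neither time passed against vehicle (0.20 ± 0.08, adjusted p = 0.229; -0.13 ± 0.08, adjusted p = 0.377). The call was lost without 6 h replicate 1, 6 h replicate 2 or 24 h replicate 2, with adjusted p up to 0.0738. The other 3 CLOCK probe sets also had a lower mean at 24 h than at 6 h, and 0 of them passed that comparison. One of them, 227531_at, read 8.30, 8.18 and 8.41 in vehicle and 7.83, 8.00 and 8.09 at 24 h, and fell by 0.32 ± 0.08 against vehicle (adjusted p = 0.0430 over probe sets), a call lost in 10 of 13 settings of that fit (adjusted p up to 0.139).

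Of the activators' relatives, NPAS2, which can stand in for CLOCK as a partner of BMAL1, read 7.81, 7.92 and 7.86 in vehicle, 7.98, 7.92 and 7.83 at 6 h, and 8.09, 7.92 and 8.09 at 24 h. The groups overlapped and no comparison passed (adjusted p 0.170 to 0.807). With probe sets averaged, NPAS2 was higher at 24 h than at 6 h by 0.21 (adjusted p = 0.0113).

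Among the repressor genes, PER2, at chr2:238244044-238300065, encodes a scaffold of the repressor complex. It read 8.41, 8.07 and 8.44 in vehicle, 8.55, 8.43 and 8.43 at 6 h, and 8.47, 8.43 and 8.38 at 24 h. Its 6 h value differed from vehicle by 0.17 ± 0.09 (95% confidence interval -0.03 to 0.36, adjusted p = 0.400) and its 24 h value by 0.12 ± 0.09 (-0.08 to 0.32, adjusted p = 0.496). Vehicle replicate 2 alone set the low end of the vehicle range, and without it the PER2 changes were 0.05 at 6 h and 0.0046 at 24 h. The second PER2 probe set, 208518_s_at, had a mean 0.20 ± 0.12 lower than vehicle at 24 h (adjusted p = 0.415), the opposite sign.

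PER3, the PER paralog with the weakest effect on the loop when deleted in mice, lies at chr1:7784291-7845177. It read 6.85, 6.61 and 6.68 in vehicle, 6.65, 6.53 and 6.77 at 6 h, and 6.81, 6.68 and 6.59 at 24 h, with all groups overlapping. Its difference from vehicle had a 95% confidence interval of -0.25 to 0.13 at 6 h and of -0.20 to 0.17 at 24 h. Its other 3 probe sets did not pass either.

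The probe sets annotated to both PER1, a PER gene that also responds quickly to resetting signals, and MIR6883 showed no change that passed in a fit of all 54613 non-control probe sets (adjusted p from 0.423 to 0.995). One of them, 36829_at, read 7.62, 7.85 and 7.57 in vehicle, 7.50, 7.63 and 7.53 at 6 h, and 7.50, 7.58 and 7.53 at 24 h, with overlapping groups. The annotation alone does not say which gene's RNA these sets read, and this was not examined further.

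CRY1, the stronger of the cryptochrome repressors, lies at chr12:106991364-107093549. It read 8.89, 8.68 and 8.91 in vehicle, 8.82, 8.68 and 8.77 at 6 h, and 8.91, 8.97 and 8.88 at 24 h. The 24 h arrays all lay above the 6 h arrays, but the difference of 0.16 ± 0.07 did not pass (adjusted p = 0.179). CRY2, at chr11:45847118-45883244, read 7.77, 7.93 and 7.77 in vehicle, 7.81, 7.77 and 7.77 at 6 h, and 7.65, 7.71 and 7.78 at 24 h. Its groups overlapped, and its difference from vehicle was -0.04 ± 0.06 at 6 h (adjusted p = 0.812) and -0.11 ± 0.06 at 24 h (adjusted p = 0.347). Each cryptochrome had 1 probe set. A p that misses the threshold does not show that these repressors stayed level: the 95% confidence intervals reach 0.36 above vehicle for PER2 and 0.25 below it for PER3, both at 6 h.

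**Figure D2:**
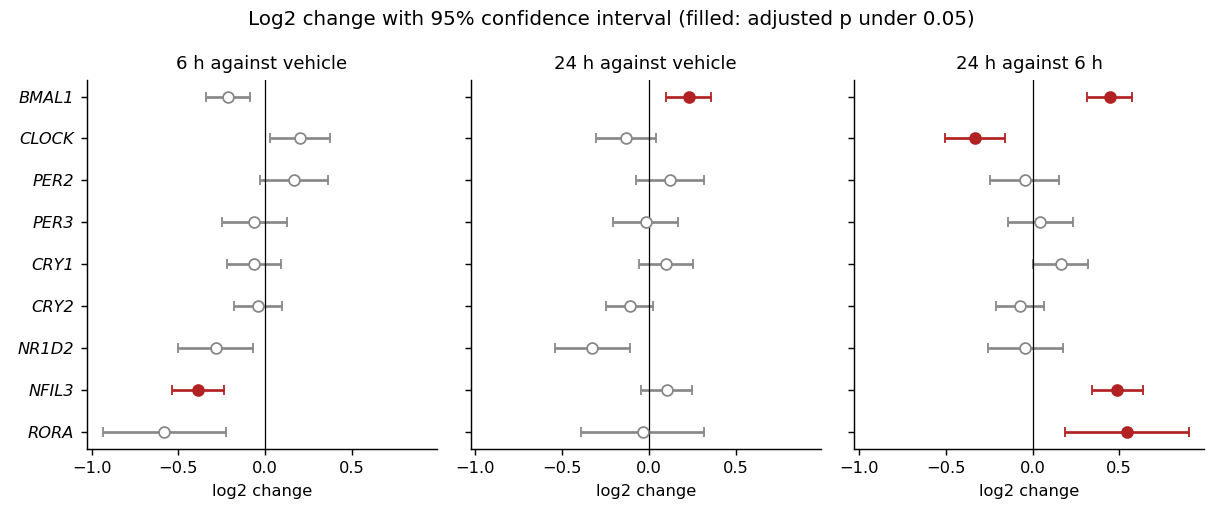
Log2 change of each measured clock gene with its 95% confidence interval, in the 3 comparisons; filled red points have an adjusted p under 0.05. Between the times, BMAL1 (0.44), NFIL3 (0.49) and RORA (0.54) lie to the right and CLOCK (-0.33) to the left, and the intervals of PER2, PER3, CRY2 and NR1D2 include 0 there.

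In the second loop, NR1D2 (REV-ERBβ), a haem-binding repressor of RORE genes, lies at chr3:23945286-23980617. Its brighter probe set read 7.78, 7.41 and 7.76 in vehicle, 7.41, 7.27 and 7.41 at 6 h, and 7.22, 7.33 and 7.42 at 24 h. Vehicle replicate 2 lay within the range of the treated arrays, and the other vehicle arrays lay above all of them. The mean was lower by 0.29 ± 0.10 at 6 h (adjusted p = 0.161) and by 0.33 ± 0.10 at 24 h (adjusted p = 0.0679), so neither passed. Without vehicle replicate 2 both passed, with changes of -0.41 (adjusted p = 0.0202) and -0.45 (adjusted p = 0.00653). On the second probe set, 225768_at, the vehicle arrays read 6.66, 6.79 and 6.75, the 6 h arrays 6.29, 6.39 and 6.35, and the 24 h arrays 6.22, 6.55 and 6.41. There every treated array lay below every vehicle array, vehicle replicate 2 being the highest of its group. That probe set fell by 0.39 ± 0.08 at 6 h (adjusted p = 0.0372 over probe sets) and by 0.34 ± 0.08 at 24 h (adjusted p = 0.0370), or 1.31-fold and 1.27-fold. These calls of the second set were lost in 7 and 8 of the 9 removals of 1 array, with adjusted p up to 0.144 and 0.109, and the 24 h call also after median centring (0.0537). Without vehicle replicate 2 the second set did not pass (adjusted p = 0.0961 and 0.0861), so with all arrays the second set passed and the first did not, and without that array the reverse. With the probe sets of each gene averaged, NR1D2 also passed at both times, with changes of -0.34 (adjusted p = 0.0195) and -0.33 (adjusted p = 0.0103). It differed little between the times (-0.04 ± 0.10, 95% confidence interval -0.26 to 0.17), and whether this set it apart from BMAL1 and NFIL3 was not tested. The 3 probe sets annotated to both NR1D1, the gene for the other REV-ERB receptor, and THRA did not pass in any comparison (adjusted p from 0.223 to 0.930 in the fit of all non-control probe sets).

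RORA, the activator at the same element, lies at chr15:60488284-61229302, and its probe sets disagreed. The brightest, 226682_at, read 6.45, 6.10 and 6.41 in vehicle, 5.62, 5.56 and 6.03 at 6 h, and 5.93, 6.45 and 6.47 at 24 h. The 6 h arrays lay below vehicle, by 0.58 ± 0.16 or 1.5-fold, which did not pass (adjusted p = 0.0801); it passed with an intensity trend and robust prior and without 24 h replicate 1. From 6 h to 24 h RORA rose by 0.54 ± 0.16 (1.46-fold, 95% confidence interval 1.14 to 1.87, adjusted p = 0.0465) although 1 array of each group overlapped. That call was lost in 10 of 19 settings, with adjusted p up to 0.179 when an array was removed. At 24 h against vehicle this probe set differed by -0.04 ± 0.16 (adjusted p = 0.931).

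Another RORA probe set, 210479_s_at, read 4.93, 5.46 and 5.05 in vehicle, 4.97, 4.83 and 5.04 at 6 h, and 5.79, 5.70 and 5.75 at 24 h. All 24 h arrays lay above both other groups, by 0.60 ± 0.12 against vehicle (adjusted p = 0.0127 over probe sets) and by 0.80 ± 0.12 against 6 h (adjusted p = 0.00157). The call against vehicle was lost without 24 h replicate 1 (adjusted p = 0.0507), and that against 6 h in 0 of 13 settings. The set 210426_x_at was higher than vehicle by 0.25 ± 0.07 at 24 h and did not pass (adjusted p = 0.0511). All 8 RORA probe sets had a higher mean at 24 h than at 6 h, with differences from 0.05 to 0.80, while against vehicle their signs were mixed. RORA has several transcripts, and which of them each probe set reads was not examined here.

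**Figure D3:**
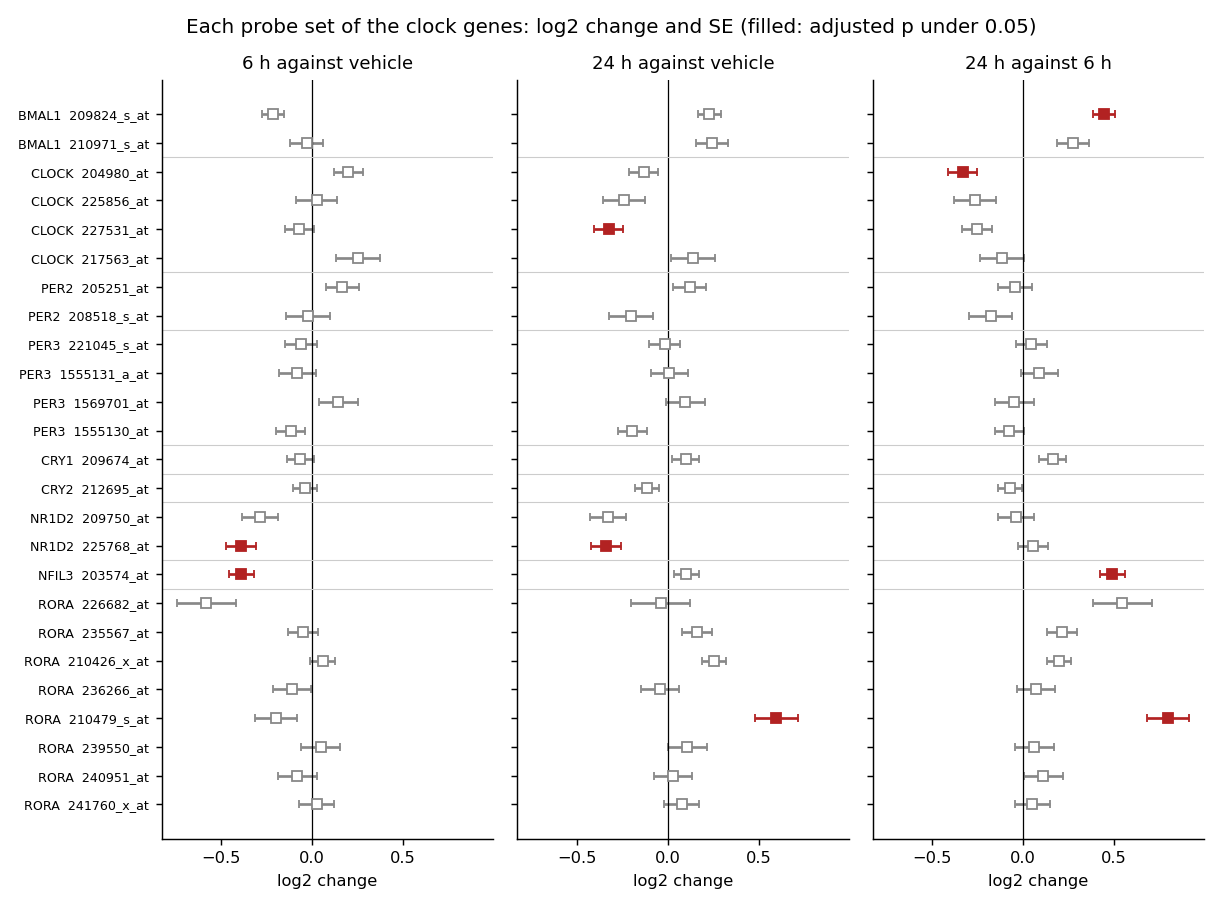
Log2 change and SE of each of the 25 probe sets of the clock genes in the 3 comparisons; filled points have an adjusted p under 0.05 over all probe sets. The RORA sets spread widely, 210479_s_at rising by 0.80 between the times, and NR1D2 set 225768_at lies at -0.39 and -0.34 against vehicle.

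NFIL3, also called E4BP4, is the D-box repressor and also acts in immune cell development. It lies at chr9:91409045-91483497 and has 1 probe set. Its arrays read 10.62, 10.74 and 10.58 in vehicle, 10.23, 10.18 and 10.38 at 6 h, and 10.75, 10.73 and 10.77 at 24 h. All 6 h arrays lay below all others. At 6 h NFIL3 fell by 0.39 ± 0.07, or 1.31-fold (95% confidence interval 1.18 to 1.45, adjusted p = 0.01). At 24 h it differed from vehicle by 0.10 ± 0.07 (adjusted p = 0.429). Between the times it rose by 0.49 ± 0.07, or 1.40-fold (1.27 to 1.56, adjusted p = 7.45e-04), a call lost in 0 of 20 settings. The 6 h call was lost without 6 h replicate 1 or without 6 h replicate 2 (adjusted p up to 0.0587).

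NFIL3 had the largest moderated F of the 9 members over the 3 groups. The genes most like it over the 9 arrays, by Pearson correlation, were LZTS2 and TPRN (both r = 0.991), WFS1 (0.989), and SURF4 and FBXO31 (both 0.984). The 9 arrays fall into 3 groups, so these values mix a shared order of group means, lowest at 6 h, with covariation within groups. The part of each was not tested. WFS1, an endoplasmic reticulum membrane protein, for example averaged 10.20 ± 0.11 (SD, n = 3) in vehicle, 9.85 ± 0.05 at 6 h and 10.29 at 24 h.

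Of the other genes of the loop, 10 of 12 listed were measured. At 6 h 1 rose and 1 fell, beside 1.64% and 1.91% of all genes. At 24 h 1 rose and 0 fell, beside 5.38% and 2.8%. Between the times 2 rose and 0 fell, beside 9.23% and 4.57%. This list and those that follow were chosen with earlier results of these data known, so their counts do not test the lists. DBP, the D-box activator that NFIL3 opposes, read 7.71, 7.87 and 7.76 in vehicle, 7.38, 7.25 and 7.29 at 6 h, and 7.72, 7.70 and 7.73 at 24 h. It fell 1.38-fold at 6 h (-0.47 ± 0.06, adjusted p = 0.00205) and stood 1.33-fold higher at 24 h than at 6 h (0.41 ± 0.06, adjusted p = 0.00119). NFIL3 and DBP, which act against each other at the D-box, had their lowest values in the same group. The DBP probe set is of the _s_at kind, whose probes can match several transcripts, as are both BMAL1 sets. Without such probe sets DBP differed by -0.10 at 6 h (adjusted p = 0.518) and by 0.17 between the times (adjusted p = 0.130), so both calls were lost. The sets used below for BHLHE40, KLF9, KLF10, EGR1, VEGFA, CDKN1A and HDAC3 are also _s_at sets. These genes were not measured without shared-probe sets, so their calls could not be checked in this way.

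BHLHE40 (DEC1), which competes with BMAL1 and CLOCK for E-boxes and is also induced by low oxygen, had the largest change of the loop genes. It read 9.58, 9.47 and 9.52 in vehicle, 10.17, 10.15 and 10.32 at 6 h, and 10.68, 10.57 and 10.45 at 24 h. The 3 groups did not overlap. BHLHE40 rose 1.61-fold at 6 h (0.69 ± 0.07, adjusted p = 5.30e-04) and 2.06-fold at 24 h (95% confidence interval 1.84 to 2.30, adjusted p = 1.05e-05). Its paralog BHLHE41 read 3.90, 3.96 and 3.96 in vehicle and 4.02, 4.09 and 4.04 at 6 h, and did not pass (adjusted p = 0.319). CIART, a repressor of BMAL1 and CLOCK, had a difference from vehicle of 0.04 ± 0.06 at 6 h and of 0.12 ± 0.06 at 24 h and did not pass (adjusted p = 0.802 and 0.275). Signals of BHLHE41 and CIART were low, with means of 3.96 and 4.75 over all arrays, at percentiles 12.2 and 23.5 of all genes. A miss at such signals does not show that they stayed level.

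**Figure D4:**
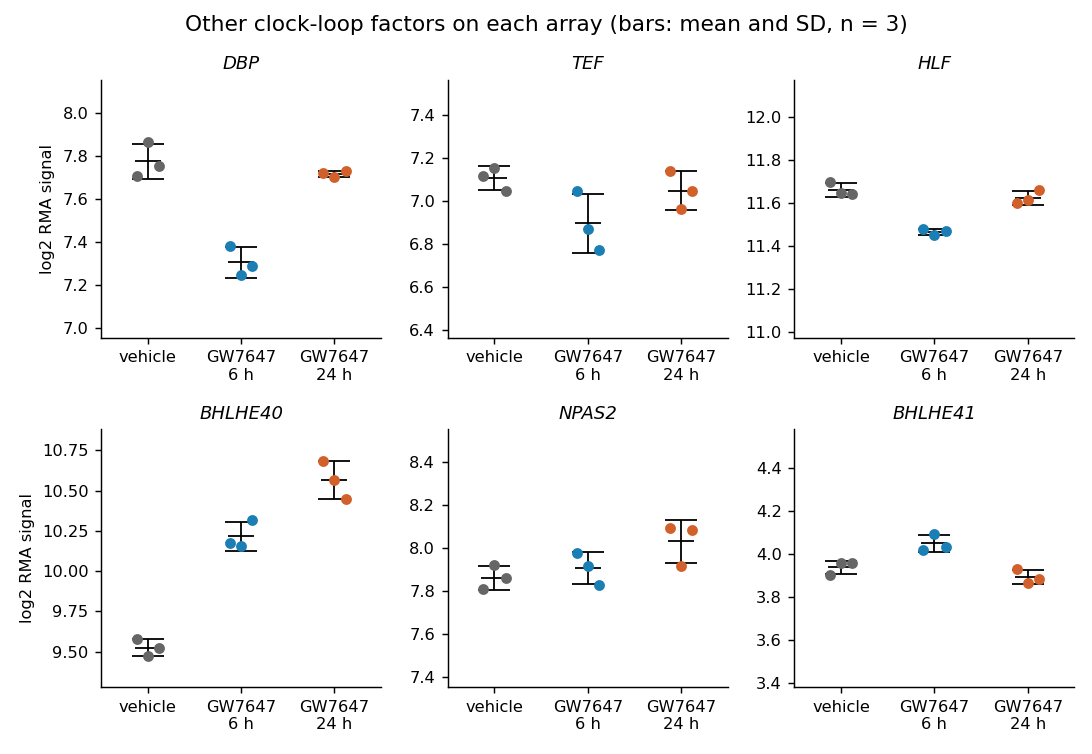
Log2 RMA signal of DBP, TEF, HLF, BHLHE40, NPAS2 and BHLHE41 on each array by group, with bars for the mean and SD of 3 arrays; the vertical range of the BHLHE40 panel is wider. DBP is lowest at 6 h, and BHLHE40 rises from 9.47 to 9.58 in vehicle to 10.45 to 10.68 at 24 h.

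Enzymes and cofactors that set the stability or activity of clock proteins (23 of 25 listed were measured) did not pass at 6 h, when 0 rose and 0 fell and 6 (26.1%) had an unadjusted p under 0.05, beside 16.3% of all genes. At 24 h 1 rose and 1 fell, beside 5.38% and 2.8% of all genes. Between the times 5 rose and 1 fell, beside 9.23% and 4.57%. The catalytic subunits of AMPK, the energy sensor that marks CRY proteins for degradation, moved apart: from 6 h to 24 h PRKAA2 fell by 0.58 ± 0.08 (adjusted p = 8.89e-04) and PRKAA1 rose by 0.33 ± 0.07 (adjusted p = 0.00686). The PRKAA1 call was lost with probe sets averaged (0.06, adjusted p = 0.646). Against vehicle at 24 h, PRKAA2 (-0.29 ± 0.08, adjusted p = 0.0493) and PRKAA1 (0.25 ± 0.07, adjusted p = 0.0430) passed narrowly, and these calls were lost in 14 and 12 of 20 settings. FBXW11, a ubiquitin ligase subunit that targets PER proteins, was higher at 24 h than at 6 h by 0.27 ± 0.07 (adjusted p = 0.0226), and HDAC3, the deacetylase that REV-ERB receptors recruit, by 0.25 ± 0.06 (adjusted p = 0.0127). The FBXW11 call was lost on removing any 6 h array or 24 h replicate 2 (adjusted p up to 0.0743), and that of HDAC3 without 6 h replicate 2 (0.0636).

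Genes known as clock outputs were listed as 21, of which 19 were measured. At 6 h 4 rose and 4 fell, beside 1.64% and 1.91% of all genes. At 24 h 7 rose and 1 fell, beside 5.38% and 2.8%. Between the times 8 rose and 3 fell, beside 9.23% and 4.57%. PPARA, the gene for the receptor that GW7647 activates, read 8.46, 8.41 and 8.60 in vehicle, 7.91, 7.85 and 7.87 at 6 h, and 8.41, 8.48 and 8.41 at 24 h, so that its 6 h arrays lay below all others, and its 24 h value did not pass (-0.06 ± 0.06, adjusted p = 0.655). KLF9, a clock- and glucocorticoid-controlled repressor, had the same order, with 8.37, 8.02 and 8.20 in vehicle, 7.70, 7.57 and 7.62 at 6 h, and 8.14, 8.05 and 8.25 at 24 h (-0.57 ± 0.09 at 6 h, adjusted p = 0.00635). PPARGC1A, a coactivator of ROR receptors at the BMAL1 promoter, read 6.40, 6.18 and 6.14 in vehicle, 5.75, 5.58 and 5.48 at 6 h, and 6.74, 6.93 and 6.72 at 24 h. Its groups did not overlap and stood in the same order as those of the brighter BMAL1 probe set, with a rise of 1.19 ± 0.09 from 6 h to 24 h (2.29-fold, adjusted p = 2.11e-05). Any link between PPARGC1A and BMAL1 was not tested. KLF10 rose at both times (0.97 ± 0.11 and 0.69 ± 0.11, adjusted p = 7.12e-04 and 0.00251). At 24 h VEGFA, an angiogenic factor also induced by low oxygen, rose by 0.81 ± 0.12 (adjusted p = 0.00260), and CDKN1A, a cell cycle inhibitor, fell by 0.40 ± 0.07 (adjusted p = 0.00447). From 6 h to 24 h CDKN1A fell by 0.31 ± 0.07, a call lost without 6 h replicate 1 or 6 h replicate 2 (adjusted p up to 0.0517).

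Of 14 genes that carry serum, glucocorticoid or other resetting signals to the clock, 3 rose and 0 fell at 6 h. Of all genes 1.64% rose and 1.91% fell then. At 24 h 1 rose and 0 fell, beside 5.38% and 2.8% of all genes. Between the times 2 rose and 4 fell, beside 9.23% and 4.57%. The immediate early factor EGR1 read 8.25, 8.02 and 8.52 in vehicle, 9.34, 9.36 and 9.11 at 6 h, and 8.53, 8.49 and 8.35 at 24 h, a 2.01-fold rise at 6 h (1.01 ± 0.11, adjusted p = 8.79e-04). SGK1, a kinase induced by serum and glucocorticoid, rose by 0.76 ± 0.06 at 6 h (adjusted p = 5.47e-05) and JUNB by 0.66 ± 0.08 (adjusted p = 0.00167). At 24 h none of the 3 passed against vehicle (adjusted p 0.369 to 0.525). These genes moved at the time at which NFIL3 was low, and their part in that difference was not tested. CEBPD rose by 0.40 ± 0.07 at 24 h (adjusted p = 0.00699), a call lost without probe sets that share probes, where its change was -0.07, and with probe sets averaged (0.17, adjusted p = 0.0923).

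Scaling moved the balance of calls over all genes, and neither scaling alternative turned the sign of a member in any of the 3 comparisons. At 6 h 324 genes rose and 377 fell; after quantile normalization the split was 419 and 328, and after median centring 253 and 416. Between the times the split was 1826 and 903, and after the same alternatives 1458 and 1210, and 2200 and 651. BMAL1, CLOCK, NFIL3 and RORA had the same sign and passed between the times under both.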

How the data were processed

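RNA from 9 HepG2 samples was measured on Affymetrix arrays, 3 per group as the labels give them. Per the submitters' processing notes, the authors deposited log2 values made with RMA, with no version named; they were used unchanged, with 0 missing values. Of 54675 probe sets, 62 were controls, 41091 others had 1 gene symbol, 1801 had several and 11721 had none. PER1 and NR1D1 had only probe sets with several symbols and were not counted. Places and promoters are from RefSeq (GRCh38.p14).

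Group means were fitted in limma 3.58.1 (R 4.3.3; lmFit, eBayes) over all 9 arrays, once with the brightest probe set of each of 19775 genes and once with all 41091 probe sets. Each of 3 comparisons was tested two-sided, with Benjamini-Hochberg adjustment over the whole table and a threshold of 0.05; an exact permutation test of 3 against 3 cannot go below 0.1. The script was tested on simulated data. The number of arrays limits precision; the median SE was 0.07. The members and gene lists were chosen with earlier results of these data known. All members were named; of each list, up to 4 genes per comparison that passed with the largest changes, and NR1D1, DBP, PPARA, PPARGC1A, BHLHE40, BHLHE41, NPAS2 and CIART. Alternatives were a replicate block, only the compared groups, an intensity trend with a robust prior, array weights, genes above the median, averaged probe sets, no shared-probe sets (ending in _x_at or _s_at), quantile normalization, median centring, a constant of 32, an adjusted p under 0.01, and each array left out. A fit over all non-control probe sets was added after the data were seen.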

Additional observations from a re-analysis of the deposited data

Results flagged for a closer look

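Among the members and the named genes of the lists, results were singled out where the values at 6 h and at 24 h of GW7647 differed. The test was of that difference, the limma comparison of 24 h with 6 h (adjusted p under 0.05). The single vehicle group cancels in it. With no vehicle group for each time, ligand exposure and time in culture cannot be told apart in these differences. Unnamed genes of the lists also passed this comparison and are not listed below, such as LPIN1 (-0.44), G6PC1 (0.50), INSIG2 (0.49) and CEBPB (0.40). Among the members the log2 change from 6 h to 24 h was 0.44 for BMAL1, -0.33 for CLOCK, 0.49 for NFIL3 and 0.54 for RORA. Among the other loop genes it was 0.41 for DBP and 0.35 for BHLHE40. Among output genes it was 0.55 for PPARA, 1.19 for PPARGC1A, 0.52 for KLF9, 0.65 for VEGFA and -0.31 for CDKN1A, a call that 2 of the 6 h arrays decided (adjusted p of at most 0.0517 once 1 of them was removed). Among genes of resetting signals it was -0.81 for EGR1, -0.66 for SGK1, -0.77 for JUNB and 0.63 for CEBPD. Among enzymes and cofactors it was -0.58 for PRKAA2, 0.33 for PRKAA1, 0.27 for FBXW11 and 0.25 for HDAC3. Groups of 3 arrays are too small for a test of single outlying arrays.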

How the results depend on the processing

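The count of members that passed was 1 at 6 h, 1 at 24 h and 4 between the times. At 6 h it was 2 with an intensity trend and robust prior, 2 with probe sets averaged, 2 with a constant of 32 added, 0 at an adjusted p under 0.01, and 0 to 2 with an array left out. At 24 h it was 0 with the replicate block, 0 with only the compared groups, 2 with probe sets averaged, 0 without shared-probe sets, 0 at an adjusted p under 0.01, and 0 to 1 with an array left out; with the trend, above the median, with array weights and without vehicle replicate 2 the 1 gene was NR1D2, falling, in place of BMAL1. Between the times it was 2 among genes above the median, 2 without shared-probe sets (which leave out BMAL1), 2 at an adjusted p under 0.01, and 2 to 4 with an array left out. Of probe sets, 2 passed at 6 h (0 to 2 with an array left out), 3 at 24 h (5 after quantile normalization, 0 to 4 with an array left out) and 4 between the times. Deviations from the group mean correlated at -0.20 to 0.086 between same-numbered arrays and at -0.24 to 0.25 between others. No pairing by replicate number was seen, and so few arrays cannot exclude one. With the replicate block 1, 0 and 4 members and 2, 2 and 5 probe sets passed.

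Signs turned as follows, in values that had not passed except CEBPD. With probe sets averaged, the change at 6 h became -0.00265 for BHLHE41, -0.0719 for NPAS2 and 0.0596 for PRKAA1, at 24 h -0.0396 for PER2, 0.14 for RORA and 0.0070 for DBP, and between the times 0.0061 for NR1D2. Without shared-probe sets it became -0.20 for NPAS2 at 6 h, 0.0086 for PER3, 0.0715 for DBP and -0.0664 for CEBPD at 24 h, and -0.0330 for CEBPD between the times. With an array left out, the change at 6 h ran from -0.12 to 0.0042 for PER3 and from -0.0666 to 0.0140 for CRY2. At 24 h it ran from -0.0747 to 0.0497 for PER3, from -0.15 to 0.14 for RORA and from -0.14 to 0.0387 for KLF9, and between the times from -0.0135 to 0.11 for PER3 and from -0.0872 to 0.0097 for NR1D2. The cause of these turns was not tested.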
